A study of Homo sapiens with 2 samples.

Results

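The Notch receptors NOTCH1, NOTCH2 and NOTCH3, the ligands JAG1, JAG2, DLL1 and DLL4 and the target genes HES1, HEY1 and HEY2 were examined for DNase I hypersensitive sites in 2 established human osteosarcoma cell lines, Saos-2 and U2OS. These 10 genes are a fixed list out of 20037 protein-coding genes. Every hotspot (a region called for an excess of DNase I cuts) that overlapped the gene span or the 100 kb on either side of it was taken. There were 66 such hotspots of 51556 in Saos-2 and 75 of 63388 in U2OS. Each group was 1 library of 1 line, so there is no spread between replicates and nothing was tested between the lines. Per the labels' protocols, nuclei were digested with limiting DNase I for 3 min at 37 °C and libraries received 8 to 10 PCR cycles. Positions are on hg38.

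In Notch signalling a receptor on one cell is bound by a Jagged or Delta-like ligand on a neighbouring cell. Cleavage by ADAM proteases and gamma-secretase then frees the receptor's intracellular domain, which enters the nucleus and joins the DNA-binding protein RBPJ to switch on genes such as those of the HES and HEY repressors. In bone the pathway is known for restraining the maturation of osteoblasts, and it has been studied in osteosarcoma. Open chromatin at a promoter is common at active genes, but a hotspot is not a measure of expression, and a site open in some of the cells cannot be told apart from a site that is weakly open in all of them.

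A promoter hotspot was one within 1 kb of the annotated gene start, and all others in a window were called distal. The reference tables gave no strand for DLL1 and HEY1, so both of their ends were used. The same was done for all 4195 protein-coding genes with no strand, so promoter counts include some hotspots at 3′ ends. A hotspot was called overlapped when it shared at least 1 bp with a hotspot of the other line. The significance of a hotspot is the authors' −log10 value, capped at 100. It has a median of 4.05 in the Saos-2 list and 4.60 in the U2OS list, and it ranks sites within a list. Read depth is unknown. The U2OS list is 1.23-fold longer and covers 1.25-fold as many bases (17.8 against 14.2 Mb), and 55.1% of all hotspots are from U2OS. Of 9 osteoblast-lineage genes, 4 had a promoter hotspot in each line (RUNX2, SPARC and BGLAP in both, with ALPL in Saos-2 and COL1A1 in U2OS). Of 13 genes of other cell types, 3 had one in both lines (CD3E, APOA1 and SNAP25).

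Promoter hotspots were found at 5 of the 10 genes, and they differed between the lines at 3 of them. JAG1 and HEY1 had one in both lines. NOTCH1 and HES1 had one in U2OS only, and HEY2 had one in Saos-2 only. NOTCH2, NOTCH3, JAG2, DLL1 and DLL4 had none in either line. Of all protein-coding genes, 41.5% were open at the promoter in both lines and 43.8% in neither. A further 9.88% were open in U2OS only and 4.73% in Saos-2 only. Counts of 2, 5, 2 and 1 among 10 genes are too few to be set apart from these shares.

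To show what lay inside these sites, the 250 bases before the gene start are given for 4 of the 5 genes with a promoter hotspot, from RefSeq on GRCh38.p14, in the direction of transcription. For HES1 and HEY2 capitals mark TGGGAA or its reverse complement, the core letters of the RBPJ site. For NOTCH1 capitals mark GGGCGG, the letters of the SP-type GC box. For JAG1 they mark the bases inside the hotspot of Saos-2. HES1 lies on the + strand (chr3:194135898-194136147), HEY2 on the + strand (chr6:125749382-125749631), NOTCH1 on the - strand (chr9:136546049-136546298) and JAG1 on the - strand (chr20:10674000-10674249).
HES1: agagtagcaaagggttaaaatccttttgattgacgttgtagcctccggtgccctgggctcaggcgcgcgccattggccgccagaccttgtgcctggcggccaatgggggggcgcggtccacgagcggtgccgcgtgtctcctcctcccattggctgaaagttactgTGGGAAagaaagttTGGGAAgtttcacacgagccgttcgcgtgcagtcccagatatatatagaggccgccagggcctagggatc
HEY2: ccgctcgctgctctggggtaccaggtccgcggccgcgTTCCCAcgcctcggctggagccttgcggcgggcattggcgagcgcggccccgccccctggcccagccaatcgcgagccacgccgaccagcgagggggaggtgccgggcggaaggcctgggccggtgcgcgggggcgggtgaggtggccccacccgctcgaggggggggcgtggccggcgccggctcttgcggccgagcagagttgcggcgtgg
NOTCH1: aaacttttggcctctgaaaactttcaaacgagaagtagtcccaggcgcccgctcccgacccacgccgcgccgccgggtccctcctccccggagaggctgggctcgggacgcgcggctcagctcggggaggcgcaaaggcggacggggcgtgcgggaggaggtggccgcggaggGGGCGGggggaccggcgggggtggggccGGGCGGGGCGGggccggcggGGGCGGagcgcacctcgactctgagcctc
JAG1: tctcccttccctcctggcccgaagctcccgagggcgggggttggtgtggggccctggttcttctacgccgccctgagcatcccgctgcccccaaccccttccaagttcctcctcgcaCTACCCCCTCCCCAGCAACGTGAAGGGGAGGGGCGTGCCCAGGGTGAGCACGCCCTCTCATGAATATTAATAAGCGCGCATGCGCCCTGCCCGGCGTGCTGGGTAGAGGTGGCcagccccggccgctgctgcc

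The U2OS hotspot at HES1 covered all 250 of these bases and that of Saos-2 covered 0. At NOTCH1, U2OS covered 247 and Saos-2 0. The order was opposite at HEY2, where Saos-2 covered 232 bases and U2OS 0. At JAG1 both lines were open, and the Saos-2 hotspot covered 113 bases where that of U2OS covered all 250. GC content was 59.2% at HES1, 79.2% at HEY2, 76.0% at NOTCH1 and 68.4% at JAG1.

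Motif letters were counted on both strands in the 8 members with a sequence in the table, and in 15843 protein-coding promoters of the same length. TGGGAA occurred 2 times at HES1, at -84 to -79 and at -70 to -65, where -1 is the last base before the start. It occurred 1 time at HEY2, on the reverse strand at -213 to -208. It was in none of the sequences of NOTCH1, NOTCH2, NOTCH3, JAG1, JAG2 and DLL4. Of all promoters, 20.2% held it and 2.65% held it at least 2 times. GGGCGG was in 7 of these 8 members, all but HES1, and in 56.0% of all promoters. It occurred 4 times at NOTCH1, where 1 pair shares a base, and 5 times at NOTCH3. The N-box letters CACNAG, which HES proteins bind, occurred 3 times at HES1 and 1 time at NOTCH3, against 30.5% of all promoters with at least 1. None of these 8 sequences held the E-box CACGTG (7.84% of all promoters), the AP-1-type TGANTCA (5.04%) or the RUNX-type TGTGGT (8.89%). None held the exact letters TATAAA, 1 form of the TATA box (9.23%). Other TATA-like letters, such as the tatatata near the end of the HES1 sequence, were not counted. A match describes the letters and does not show that a factor was bound.

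**Figure D1:**
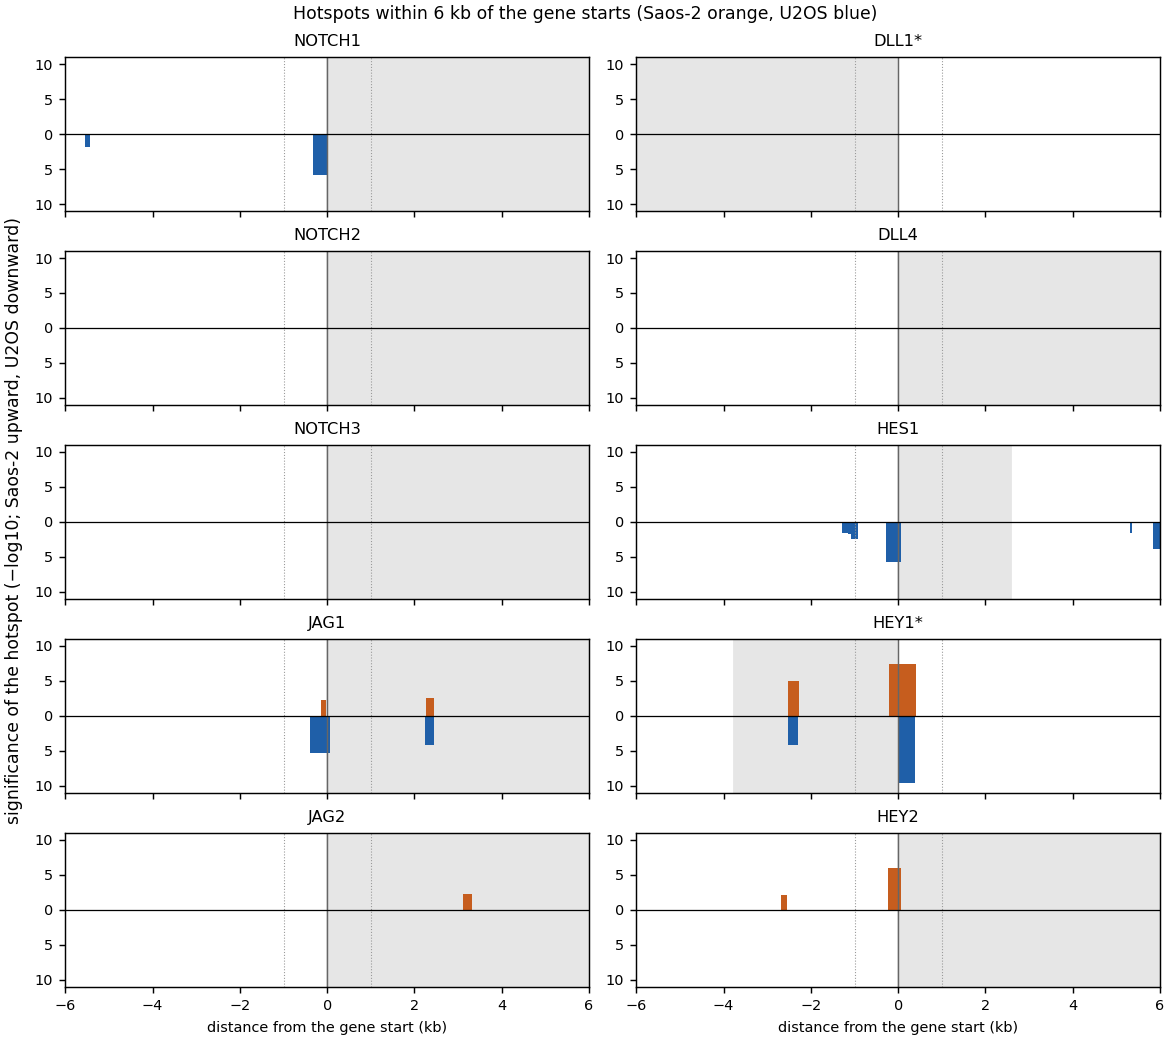
Hotspots within 6 kb of each gene start, plotted as distance from the start (kb) against the authors' −log10 significance, with Saos-2 upward in orange and U2OS downward in blue, dotted lines at 1 kb and the gene span in grey. For DLL1 and HEY1 (asterisks) distance runs along the chromosome from the higher-coordinate end. NOTCH1 and HES1 have bars only for U2OS within 1 kb of the start, HEY2 only for Saos-2, and JAG1 and HEY1 for both.

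Of the receptors, NOTCH1 (gene 4851, chromosome 9, 136494433 to 136546048, - strand) was the only one with a promoter hotspot. NOTCH1 is a widely expressed receptor. Its U2OS hotspot at 136546052 to 136546376 began 4 bp before the start, was 325 bp wide and had a significance of 5.91, above 59.8% of the U2OS list. It also overlapped the microRNA gene MIR4674. The Saos-2 hotspot closest to the start was 22.0 kb upstream. That site was paired with a U2OS hotspot, and another pair lay 26.0 kb upstream. The significance at the nearer pair was 3.23 in Saos-2 and 7.76 in U2OS, and at the farther pair 4.24 and 11.1. Both pairs overlap no annotated gene and have NOTCH1 as the closest start.

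The NOTCH1 window held 7 hotspots in Saos-2 and 12 in U2OS. Of the Saos-2 hotspots, 6 were overlapped, and the exception, 30.4 kb upstream, was 56 bp wide with a significance of 2.43. Of the 11 distal U2OS hotspots, 5 were overlapped. The highest distal site of both lines lay beyond the 3′ end, 62.5 kb from the start in Saos-2, in SEC16A and close to its start, at 13.9 in Saos-2 and 13.5 in U2OS. The highest distal U2OS hotspot with no overlap was also near the SEC16A start and reached 3.01. Apart from the promoter, the U2OS hotspots of NOTCH1 with no overlap were all weak, with values from 1.40 to 3.01.

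NOTCH2 (gene 4853, chromosome 1, 119911553 to 120069662, - strand), a receptor that also acts in osteoclast formation, had the widest window, 358 kb, and few hotspots in it. There were 7 in Saos-2 and 5 in U2OS, or 1.95 and 1.40 per 100 kb. Both lines shared 3 sites. One was inside the gene, 82.2 kb from the start (5.67 in Saos-2 and 4.44 in U2OS), one 18.4 kb upstream (2.74 and 3.69) and one 198.4 kb downstream of the start, past the 3′ end (3.83 and 3.78). The highest Saos-2 site of the window, 73.2 kb upstream at 120142897 to 120143215, reached 9.27 and was not overlapped in U2OS. The highest U2OS hotspot with no overlap reached 2.34. Near-identical copies of the 5′ part of NOTCH2 lie elsewhere on chromosome 1, and the treatment of reads that fit several places is not given in the sources used here, so the lack of a call at the NOTCH2 start is uncertain. Among these copies, NOTCH2NLC and NOTCH2NLR had 1 promoter hotspot each in both lines, while NOTCH2NLA and NOTCH2NLB had 0.

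NOTCH3 (gene 4854, chromosome 19, 15159038 to 15200995, - strand), known as the receptor of vascular smooth muscle, lay in the window with the most Saos-2 hotspots, 13, against 11 in U2OS. Nearly all were outside the gene, with 1 Saos-2 hotspot (1.88) and 0 U2OS hotspots inside it. A shared site 22.4 kb upstream of the start, in no annotated gene, reached 6.83 in Saos-2 and 12.5 in U2OS. The highest distal U2OS hotspot with no overlap lay beside it, 21.7 kb upstream, at 4.61. The highest distal hotspot of both lines was at the start of HACL2, 75.0 kb from the NOTCH3 start, at 8.98 in Saos-2 and 22.5 in U2OS.

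**Figure D2:**
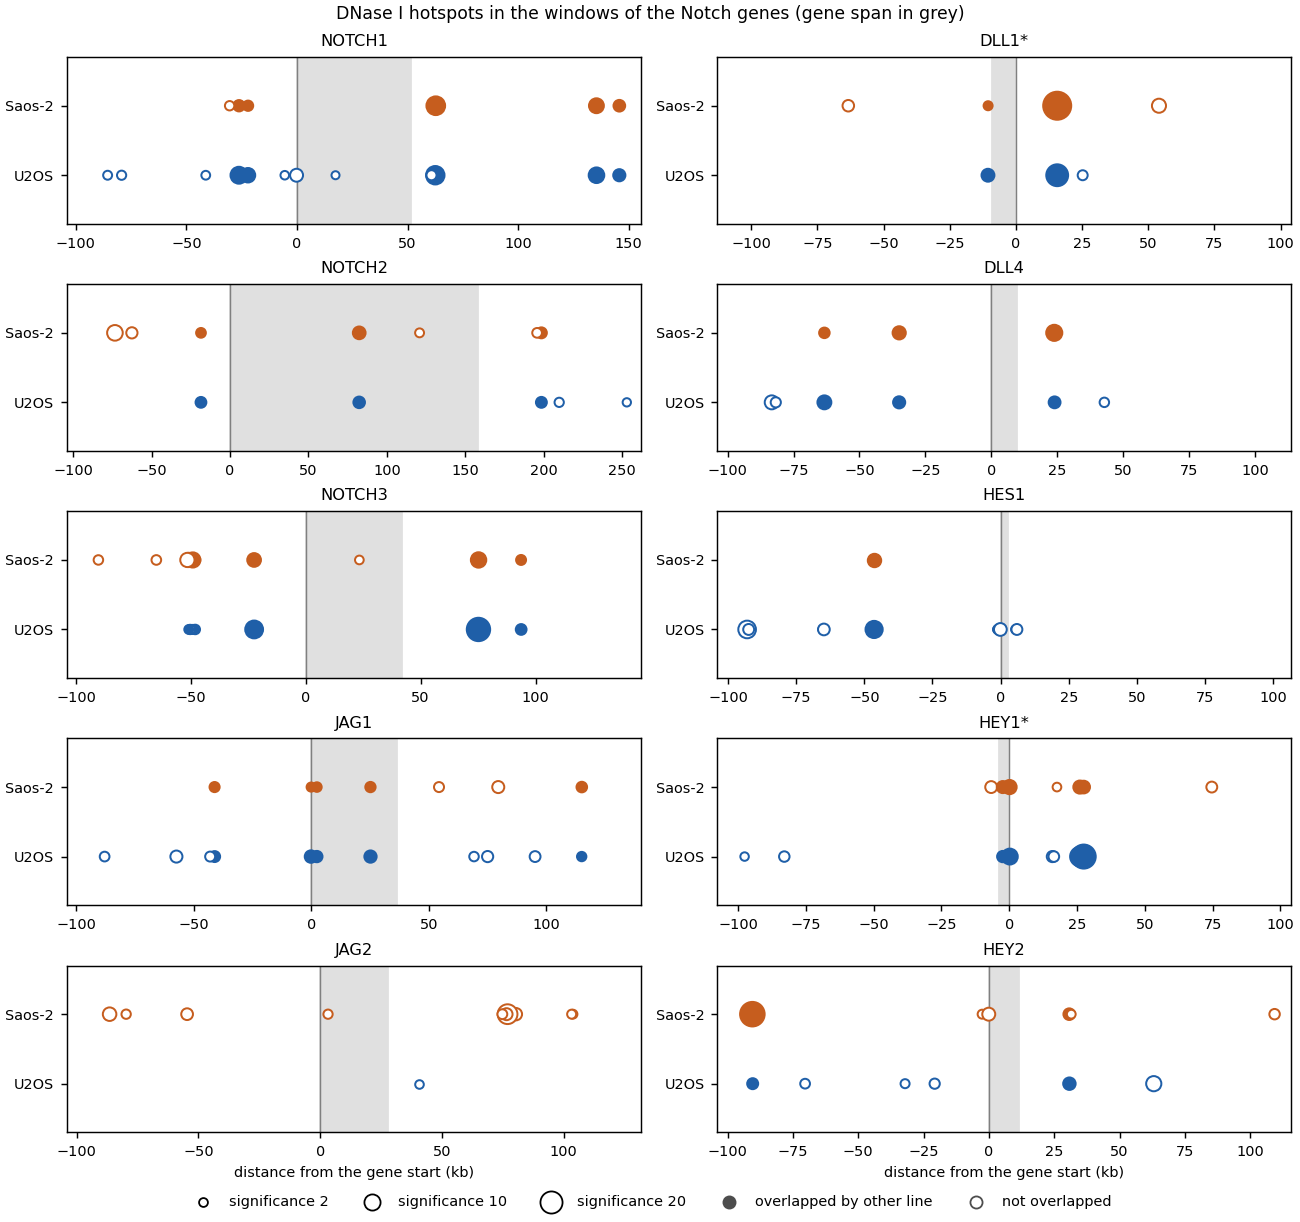
Hotspots in the window of each gene, with distance from the start in kb along the direction of transcription (for DLL1 and HEY1, marked by asterisks, along the chromosome from the higher-coordinate end). Each circle is 1 hotspot, its area grows with the authors' significance, filled circles are overlapped by the other line and the grey band is the gene span. JAG2 has open circles only, 11 in Saos-2 and 1 in U2OS, and HES1 has 1 circle in Saos-2 and 11 in U2OS.

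The ligand genes ranged from a promoter open in both lines to a window with no shared site. JAG1 (gene 182, chromosome 20, 10637684 to 10673999, - strand), a ligand expressed in osteoblasts, had a promoter hotspot in each line. In U2OS it was 465 bp wide with a significance of 5.37, above 56.1% of its list, and was the highest site in the U2OS window. In Saos-2 it was 113 bp wide at 2.22, above 19.5% of its list, and was the lowest site in the Saos-2 window. With only the top 50% of each list, the JAG1 promoter counted as open in U2OS only. Both lines also shared sites inside the gene, 2.3 and 25.1 kb from the start. Their significance was 2.59 and 3.22 in Saos-2 and 4.19 and 5.17 in U2OS.

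Hotspots covered 2539 bp of the JAG1 window in U2OS against 1247 bp in Saos-2, a 2.04-fold difference that is just above the 2-fold call used here. With 50 kb flanks it was below 2-fold, at a log2 difference of 0.76, and with 10 kb flanks at 0.91. The gap was wider when only the top 50% of each list was used, at 920 bp for U2OS against 201 bp for Saos-2 (log2 difference 2.19). Of 10 distal U2OS hotspots, 6 were not overlapped, and the highest of these was 57.3 kb upstream at 4.96. That count is near the whole U2OS list, where 30476 of 52118 hotspots at no gene start were not overlapped. The highest Saos-2 hotspot of the window, at 4.92, lay in SLX4IP 79.4 kb from the JAG1 start and was not overlapped either.

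JAG2 (gene 3714, chromosome 14, 105140995 to 105168776, - strand) encodes the other Jagged ligand and showed the widest gap of the 10 genes. Its window held 11 hotspots in Saos-2 and 1 in U2OS, which covered 2768 and 142 bp, a 19.5-fold difference. The U2OS share of the hotspots was 8.33% (exact binomial 95% interval 0.211 to 38.5%, for counting error only). None of the 12 hotspots was overlapped. The closest Saos-2 hotspot was inside the gene, 3.1 kb from the start, with a significance of 2.32. The U2OS hotspot, 40.4 kb from the start, reached 1.83 and would be lost from a U2OS list cut to the length of the Saos-2 list.

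The Saos-2 sites around JAG2 were concentrated past its 3′ end. A group of 5 hotspots between 105088259 and 105094059, a span of 5.80 kb in no annotated gene, had values from 2.82 to 15.7. The highest of them, at 105091575 to 105092084, was above 92.4% of the Saos-2 list. Others lay at the start of GPR132 (2 hotspots, 2.04 and 2.14) and of BTBD6 (2.40), and in BRF1 upstream of JAG2 (4.60 and 6.59). The surroundings did not show the same gap. In the 1 Mb on either side of the window, Saos-2 had 33 hotspots and U2OS 30, and within 5 Mb the counts were 133 and 128. The U2OS share of 47.6% within 1 Mb lay outside the counting interval of the window, as did the 55.1% of all hotspots. The interval treats hotspots as independent, and the group of 5 shows that they are not. With 10 kb flanks 210 bp were covered in Saos-2 and 0 in U2OS, under the 500 bp required for a call, so the difference comes from the wider flanks.

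DLL1 (gene 28514, chromosome 6, 170282206 to 170291078), a Delta-like ligand of early development, had no hotspot within 1 kb of either end and none inside the gene. Its window contained the highest member site of the Saos-2 list, at 170306446 to 170306895 in FAM120B. It lay 15.4 kb from the higher-coordinate end of DLL1, and its significance of 33.0 was above 99.0% of the Saos-2 list. The same site reached 19.5 in U2OS, above 92.2% of that list. A second shared site lay 1.6 kb outside the lower-coordinate end, at 2.15 in Saos-2 and 5.88 in U2OS. With a promoter window of 2.5 kb around both ends, DLL1 was therefore counted as open in both lines. That end may be the 3′ end, 10.4 kb from the other, so an open DLL1 promoter is not established. Hotspots with no overlap reached 7.24 in Saos-2 and 2.94 in U2OS.

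DLL4 (gene 54567, chromosome 15, 40929340 to 40939073, + strand), best known as a ligand of sprouting endothelium, had no hotspot at its start or inside the gene. All 3 Saos-2 hotspots of the window were overlapped, at the starts of VPS18 (6.23) and CHAC1 (9.96) and 63.2 kb upstream of DLL4 (3.44). U2OS had these 3 sites, at 5.03, 4.73 and 7.08, and 3 more with no overlap. The highest of those, in SPINT1 83.1 kb upstream, reached 7.12.

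Among the target genes, HES1 (gene 3280, chromosome 3, 194136148 to 194138732, + strand), which encodes a basic helix-loop-helix repressor, differed most. The window had 1 hotspot in Saos-2 and 11 in U2OS, which covered 319 and 2331 bp, a 7.31-fold difference. The U2OS share of hotspots was 91.7% (exact binomial 95% interval 61.5 to 99.8%, for counting error only). Around the start, U2OS had 4 hotspots over 1.36 kb. The main one, at 194135861 to 194136223, spanned the start and the TGGGAA pair printed above, was 363 bp wide and reached 5.74, above 58.8% of the U2OS list. The other promoter hotspot, 0.9 kb upstream, reached 2.41. In Saos-2 the closest hotspot was 46.3 kb upstream.

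That Saos-2 hotspot, at 194089554 to 194089872, was the 1 site of the HES1 window that both lines shared, with 6.45 in Saos-2 and 11.5 in U2OS. It lies in the locus LOC102724877. The highest U2OS site was 92.8 kb upstream in the long non-coding RNA gene LINC02028, at 12.2, and Saos-2 had no overlap there. The surroundings were also richer in U2OS than the lists as a whole. Within 1 Mb outside the window there were 44 Saos-2 and 75 U2OS hotspots, a U2OS share of 63.0%. That share lies inside the counting interval of the window, whereas the 55.1% of all hotspots lies outside it. The interval treats hotspots as independent, which the 4 U2OS hotspots within 1.36 kb around the start are not, so it is too narrow to set the window apart. The call held with 50 kb and 10 kb flanks, in the top 50% of each list and with lists of equal length. Within 10 kb of the gene the covered bases were 0 in Saos-2 and 995 in U2OS.

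HEY1 (gene 23462, chromosome 8, 79764010 to 79767767), a HES-related repressor that is induced in osteoblasts by bone morphogenetic proteins, was the most evenly covered gene, at 1998 bp (Saos-2) and 2081 bp (U2OS). This small difference turned its sign with lists of equal length (1998 and 1893 bp). A hotspot at the higher-coordinate end was the highest site of the window in Saos-2, 624 bp wide at 7.43. In U2OS it was 394 bp wide at 9.66. A shared site inside the gene stood at 4.94 and 4.16. The highest U2OS sites were instead a pair 25.9 and 27.3 kb from that end, in the long non-coding RNA genes LINC01607 and LOC101927040. They reached 15.4 and 23.9 in U2OS and 6.08 and 5.65 in Saos-2. HEY1 lies in a part of chromosome 8 that is rich in U2OS hotspots, with 25 in Saos-2 and 57 in U2OS within 1 Mb outside the window (69.5% U2OS). Inside the window the counts were 7 and 9.

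HEY2 (gene 23493, chromosome 6, 125749632 to 125761269, + strand), a repressor known from heart and vessel development, was the member with a promoter hotspot in Saos-2 only. It lay at 125749400 to 125749703, was 304 bp wide, spanned the start and reached 5.93, above 66.0% of the Saos-2 list. It also overlaps the antisense gene HEY2-AS1. In U2OS the closest hotspot was 20.7 kb upstream at 3.17. Covered bases of the whole HEY2 window were similar in total, at 1887 and 1708 bp, but they lay in partly different sites. Of the distal hotspots, 3 of 5 in Saos-2 and 4 of 6 in U2OS were not overlapped. Over the whole lists 19732 of 41420 Saos-2 and 30476 of 52118 U2OS hotspots at no gene start were not overlapped. The HEY2 counts are too few to be set apart from these. With 50 kb flanks the totals were 1044 and 590 bp. The highest Saos-2 site, 90.2 kb upstream in HEY2-AS1, was 608 bp wide at 25.0. A U2OS hotspot of 201 bp at 3.86 lay within it. The highest U2OS site, 62.7 kb downstream of the start in NCOA7, reached 8.67 and had no overlap.

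**Figure D3:**
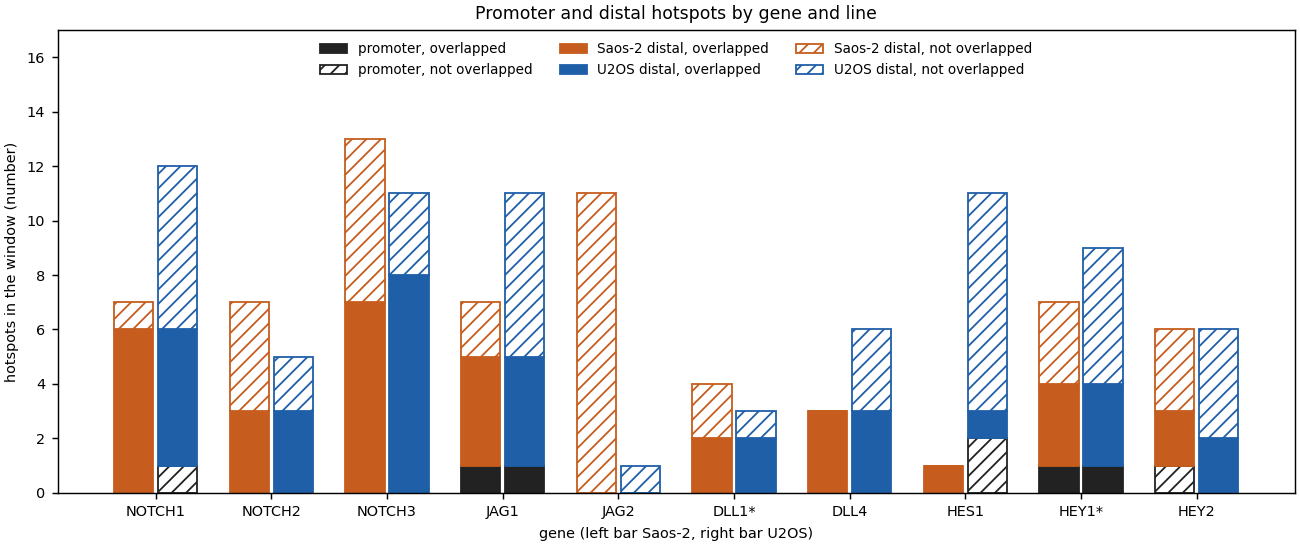
Number of hotspots in the window of each gene, with Saos-2 as the left and U2OS as the right bar. Black is promoter, colour is distal, and hatching marks hotspots that the other line did not overlap. The bars of JAG2 (11 and 1) and HES1 (1 and 11) are unequal in opposite directions, and the other genes range from 3 to 13.

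Promoter and distal sites were then compared over all windows. Of 3 promoter hotspots in Saos-2, 2 were overlapped, and of 5 in U2OS, 2 were. Over the whole lists 81.5% of promoter hotspots in Saos-2 and 71.7% in U2OS were overlapped, but the Wilson 95% intervals of the members, 20.8 to 93.9% and 11.8 to 76.9%, are wide and include both. Of the distal hotspots, 31 of 63 in Saos-2 (49.2%, interval 37.3 to 61.2%) and 31 of 70 in U2OS (44.3%, 33.2 to 55.9%) were overlapped. By gene the distal share in Saos-2 ran from 0 of 11 at JAG2 to 6 of 7 at NOTCH1, 3 of 3 at DLL4 and 1 of 1 at HES1. In U2OS it ran from 0 of 1 at JAG2 and 1 of 9 at HES1 to 8 of 11 at NOTCH3. At JAG2 and HES1 the low share of the line with more hotspots repeats the difference in counts. The other line had only 1 hotspot there that could overlap them.

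Some distal sites were at the starts of neighbouring protein-coding genes, and these were overlapped in 9 of 13 cases in Saos-2 and 10 of 12 in U2OS. Distal sites at no start were overlapped in 22 of 50 cases in Saos-2 (44.0%, interval 31.2 to 57.7%) and 21 of 58 in U2OS (36.2%, 25.1 to 49.1%). Over the whole lists 52.4% and 41.5% of hotspots at no start were overlapped, both inside these intervals. Distal hotspots of the windows ranked higher where they were overlapped. Their median significance was 4.94 with and 2.90 without overlap in Saos-2, and 5.03 with and 2.72 without in U2OS. The same medians were not taken over the whole lists, so this is not read as particular to these windows. With each window left out in turn, the distal share of Saos-2 ran from 44.6% (without NOTCH1) to 59.6% (without JAG2). That of U2OS ran from 39.0% (without NOTCH3) to 49.2% (without HES1).

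Within the windows, 30 pairs consisted of 1 hotspot from each line that overlapped no other. They are plotted to show which site of a gene ranked high in each list, and no change is read from them because the level of the significance depends on depth. JAG1 and HEY1 were the 2 genes with a pair at their own start.

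**Figure D4:**
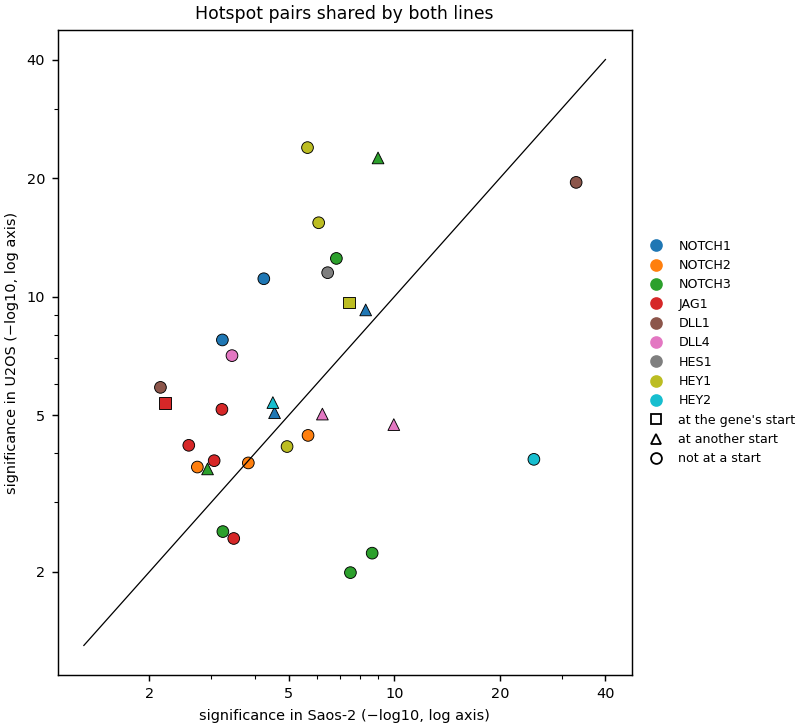
Authors' significance (−log10, logarithmic axes) of the 30 hotspot pairs in the windows, Saos-2 on the x axis and U2OS on the y axis, coloured by gene and shaped by whether the site is at the gene's start, at another start or at none. The line marks equal values. The FAM120B site near DLL1 is high in both lists, the HEY1 distal pair ranks high in U2OS, and the site upstream of HEY2 ranks high in Saos-2. JAG2 has no pair.

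Covered bases of a window differed at least 2-fold at 3 of the 10 genes, among genes with at least 500 covered bases in either line. They were higher in U2OS at HES1 and JAG1 and higher in Saos-2 at JAG2. Of 18745 protein-coding genes with that coverage, 22.1% were at least 2-fold higher in U2OS and 5.03% in Saos-2, so the members' counts of 2 and 1 are close to the background. Of these genes, 0.32% had a lower ratio of U2OS to Saos-2 (1 base added to each) than JAG2, and 96.0% had a lower one than HES1. The median log2 difference of U2OS minus Saos-2 was -0.04 for the 10 genes and 0.29 for 18273 protein-coding genes covered in both lines. The members split evenly, with 5 on each side. Across the 18273 the split leaned to U2OS, which had the larger coverage at 11993, against 6276 for Saos-2. Whether the members depart from that split was not tested.

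The hotspots of all 10 windows numbered 1.14-fold more in U2OS, a U2OS share of 53.2% (exact binomial interval 44.6 to 61.6%), which includes the share of 55.1% over the whole lists. Left out in turn, the HES1 window gave 49.6% and the JAG2 window 57.4%, the extremes of the 10 windows. With lists of equal length the windows held 66 hotspots in Saos-2 and 56 in U2OS, the opposite order, and in the top 50% of each list they held 34 and 26.

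**Figure D5:**
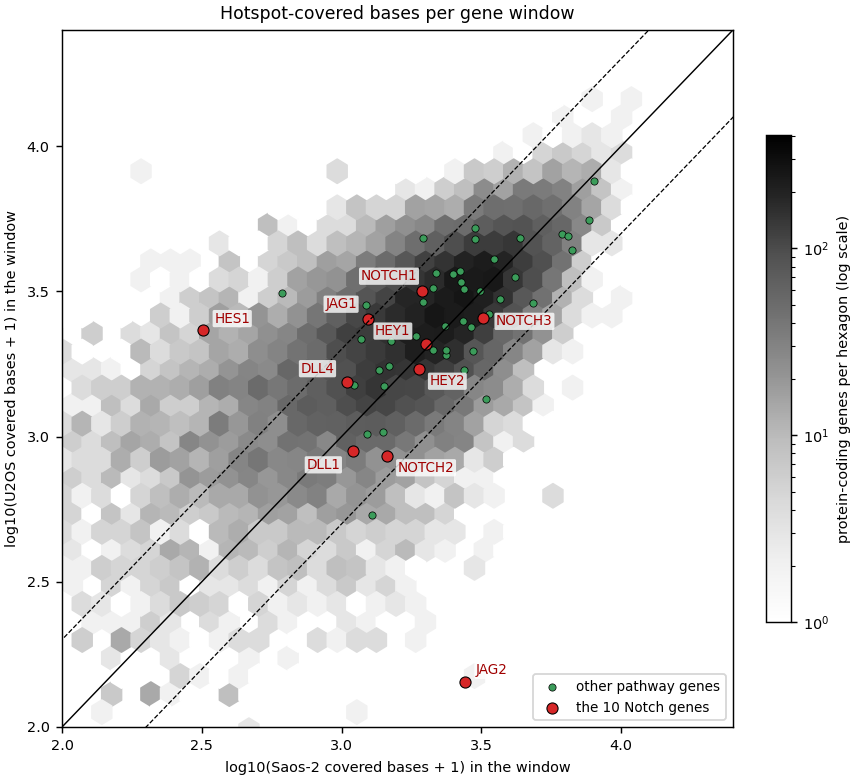
Hotspot-covered bases per gene window on log10(bases + 1) axes, Saos-2 on the x axis and U2OS on the y axis. Grey hexagons count protein-coding genes, green points are the other pathway genes, red points are the 10 members, the solid line marks equal values, dashed lines mark 2-fold, and windows with under 100 bases in either line fall outside the axes. JAG2 lies far below the lower dashed line, HES1 lies above the upper one and JAG1 at it.

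The rest of the pathway was described from a list of 43 further genes. Of these, 19 had a promoter hotspot in both lines and 16 in neither, while 5 had one in U2OS only and 3 in Saos-2 only. These counts are near the shares over all protein-coding genes given above, 41.5%, 43.8%, 9.88% and 4.73% in the same order. For the 7 of these 43 genes with no strand given, a hotspot at either end of the gene was counted. The gamma-secretase and protease genes were mostly open in both lines, with promoter hotspots for the ADAM10 and ADAM17 proteases and for NCSTN, APH1A and PSENEN of gamma-secretase. So were those of the co-activators MAML1, MAML2 and MAML3. RBPJ, the DNA-binding protein of the pathway, had no hotspot within 1 kb of the 1 start considered for it. Its long window of 530 kb held 18 hotspots in Saos-2 and 21 in U2OS, or 3.4 and 3.96 per 100 kb. The other HES genes on the list, HES2, HES3, HES4, HES5, HES6 and HES7, and HEYL had no promoter hotspot in either line, nor did NOTCH4.

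Pathway genes with a promoter hotspot in U2OS only included KDM5A, a histone demethylase that associates with RBPJ (10.2), APH1B, a subunit of gamma-secretase (5.76), DTX4 of the Deltex family (4.85 and 2.34) and the atypical ligand DLL3 (3.79). The promoter hotspots in Saos-2 only were at DLK2 (3.10), at PSEN2, a catalytic subunit of gamma-secretase (2.93), and at NUMBL, which is related to the Notch inhibitor NUMB (1.75). APH1B and DLL3 have no strand in the reference used, and their hotspots lie at the lower-coordinate and the higher-coordinate end. Either may be the 3′ end of the gene, so a promoter hotspot is not established for these genes.

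Covered bases were at least 2-fold higher in U2OS at 3 of the 43 genes and in Saos-2 at 2. The former were KDM5A (613 and 3111 bp, 5.08-fold), PSENEN (1961 and 4814 bp, 2.45-fold) and HEYL (1218 and 2828 bp, 2.32-fold). The latter were HES7 (3295 and 1342 bp, 2.46-fold), which acts in the segmentation clock of the embryo, and HES2 (1288 and 535 bp, 2.41-fold). The other 38 genes differed by less than 2-fold, with a median log2 difference of 0.04 over all 43 genes. The shares of 22.1% and 5.03% over all genes stand beside these counts. The call at JAG2 was larger than any on this list.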

How the data were processed

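DNase-seq of 1 Saos-2 and 1 U2OS library was analysed from the authors' hotspot lists. Per the submitters' processing notes, Trimmomatic 0.38, BWA 0.7.15 and hg38 were used, and the hotspot caller is not given in the sources used here. The deposited lists are named for a false discovery rate of 0.05, and each belongs to 1 sample. The deposited −log10 values run from 1.30 to a cap of 100 and were taken as significance. The deposited score is that value times 10 and was not used further. Gene spans and promoter sequences came from RefSeq tables on GRCh38.p14, the primary assembly of hg38. The promoter table gave a strand and start for 15842 of 20037 protein-coding genes, and both ends were used for the other 4195. For those 4195 genes a hotspot at the 3′ end was therefore also counted as a promoter hotspot, which affects the shares over all genes. Where a strand was given, only 1 start per gene was considered. Overlaps, covered bases, exact binomial (Clopper-Pearson) and Wilson 95% intervals were computed with Python 3.11.15, pandas 2.3.3, NumPy 2.4.6 and SciPy 1.17.1, and the interval functions were tested on simulated data. Intervals cover counting error only, and read depth is unknown. With 1 library per line no test between the lines was made. All members, every promoter hotspot, the highest distal and the highest distal site without overlap per line were named, with the pathway genes past 2-fold or with a promoter hotspot in 1 line. Members and lists were chosen with earlier results of these data known. Some of the sites and genes that this rule selects are not reported here.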

Additional observations from a re-analysis of the deposited data

How the results depend on the processing

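No paired analysis was possible because there is 1 library for each line, which also means that no replicate could be omitted. Of 166 values recomputed under an alternative, 142 stayed within 1.5-fold (counts), within their interval (shares) or on their side of the 2-fold call. No 2-fold call changed direction, but uncalled orders did. The use of genes with a strand only, the 1 Mb and 5 Mb surroundings and the omission of each window were chosen after seeing the data. Shorter flanks lower the counts by construction. With 50 kb flanks the windows held 43 Saos-2 hotspots, and with 10 kb flanks 13 in Saos-2 and 17 in U2OS. With 50 kb flanks 1 member was 2-fold higher in U2OS and 6 other pathway genes were. With 10 kb flanks 0 members were 2-fold higher in Saos-2, since JAG2 fell below the coverage minimum, and 4 other pathway genes were. The top 50% of each list left 34 Saos-2 and 26 U2OS hotspots (43.3% U2OS), 59.1% of distal U2OS hotspots overlapped, and 1 member with a promoter hotspot in both lines. In that setting 8 other pathway genes had a promoter hotspot in U2OS only and 1 had one in Saos-2 only. Covered bases were then 2-fold higher in Saos-2 at 2 members, with NOTCH2 added, and at 4 other pathway genes, and higher in U2OS at 5 of the latter. A promoter window of 2.5 kb gave 5 other pathway genes with a hotspot in Saos-2 only. A fold of 1.5 gave 2 members and 5 other pathway genes higher in Saos-2, and 8 of the latter higher in U2OS. With genes of known strand only, 1 member had a promoter hotspot in both lines, as HEY1 was not counted. With lists of equal length the distal overlap was 44.4% in Saos-2 and 52.9% in U2OS, the opposite order. The number of hotspots in the windows then was 66 in Saos-2 and 56 in U2OS (45.9% U2OS), also the opposite order, and the log2 difference of HEY1 went from 0.06 to -0.08 (-0.64 in the top 50%). The cause of the other changes was not tested.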
